A study of Drosophila melanogaster with 6 samples.

Results

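Septate junction genes were followed in wing imaginal discs, the larval epithelia that form the adult wing, of kdm5 mutant and wild type Drosophila melanogaster. The group holds 10 genes by name, cora, Nrx-IV, Nrg, Cont, sinu, kune, Atpalpha, nrv2, Gli and Lac, and its probe sets are those that the platform annotation gives to exactly 1 of these genes. This left 11 of 18769 tested probe sets, which measure 9 of the 10 genes: 3 probe sets for Nrg and 1 each for the other 8. Atpalpha, the catalytic subunit of the sodium pump, was not analysed here. RNA came from discs dissected from larvae of the third instar at 96 h AED, and each of the 6 samples, of about 60 discs, was hybridised to 1 Drosophila Genome 2.0 array. The mutant group holds 3 biological replicates of kdm5 mutant larvae, strain kdm510424, and the wild type group 3 replicates of w1118. Kdm5, also called lid, encodes a demethylase of methylated lysine 4 of histone H3. The mutant strain and w1118 may differ at other loci, and with no background-matched control the strain and the mutation cannot be told apart. The labels do not say whether replicates came from separate crosses, so every p-value here refers to the spread among these 6 samples, which may be technical in part.

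Septate junctions are the occluding junctions of insect epithelia and lie basal to the adherens junctions. In the pleated type, which disc epithelium builds, a large complex of adhesion proteins, claudins and the sodium pump spans the space between cells and is held from the inside by FERM-domain and PDZ-domain scaffolds. The same proteins seal the tracheal tube, the salivary gland and the glial sheath of the nervous system, and in wing discs the complex also limits how far solutes pass between cells.

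Medians of the arrays, which the authors' normalization may have set, lay between 4.42 and 4.45 on the log2 scale, and log2 values correlated across probe sets with r from 0.998 to 0.999 within a genotype and from 0.989 to 0.990 between genotypes. The mutated gene went with the labels: Kdm5 read 4.67, 3.70 and 4.49 in kdm5 mutant discs and 10.09, 10.15 and 9.98 in wild type discs, a log2 change of -5.79 ± 0.23 (SE, limma adjusted p = 6.18e-06), and an exact two-sided permutation test gave 0.1, the smallest value 3 arrays against 3 allow. On 1 probe set per gene all 9 measured markers of wing disc epithelium lay, in the mean over the arrays, above 4.44. That is the median of the means of all probe sets, called the median level below. The same held for all 7 fat body and all 5 myoblast markers measured, and for 8 of 10 salivary gland and 3 of 7 gut markers. Lying above this level therefore does not set disc epithelium apart. Of all probe sets 18.3% were called, a call being a Benjamini-Hochberg adjusted p under 0.05 in limma over all 18769, with 9.84% lower and 8.49% higher in the mutant. The number of arrays, 3 per genotype, limits the precision of every value below.

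On the deposited values most septate junction transcripts gave no call between kdm5 mutant and wild type discs. Whether their levels were the same was not tested. Of the 11 probe sets 1 was called, that of Lac, which fell, and the other 10 did not pass (limma adjusted p = 0.204 to 0.755). That is 9.09% of the member probe sets, beside 18.3% of all probe sets and 31.9% of the 9384 that lie above the median level, where all 11 members lie. The share called lower was 17.5% and the share called higher 14.4% among those 9384. At an unadjusted p under 0.05 in limma the count was also 1 of 11, against 30.2% of all probe sets, dim ones included. That share was not computed for the 9384 alone. The change of Lac was the largest in size among the members, and the 95% intervals of all 11 lay between -20.7% and 16.3% of the wild type signal. The median log2 change of the 9 genes was -0.06, against 0.004 over all 11981 genes, and the median size of change was 0.10, against 0.11 over all genes and 0.14 over genes above the median level.

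**Figure D1:**
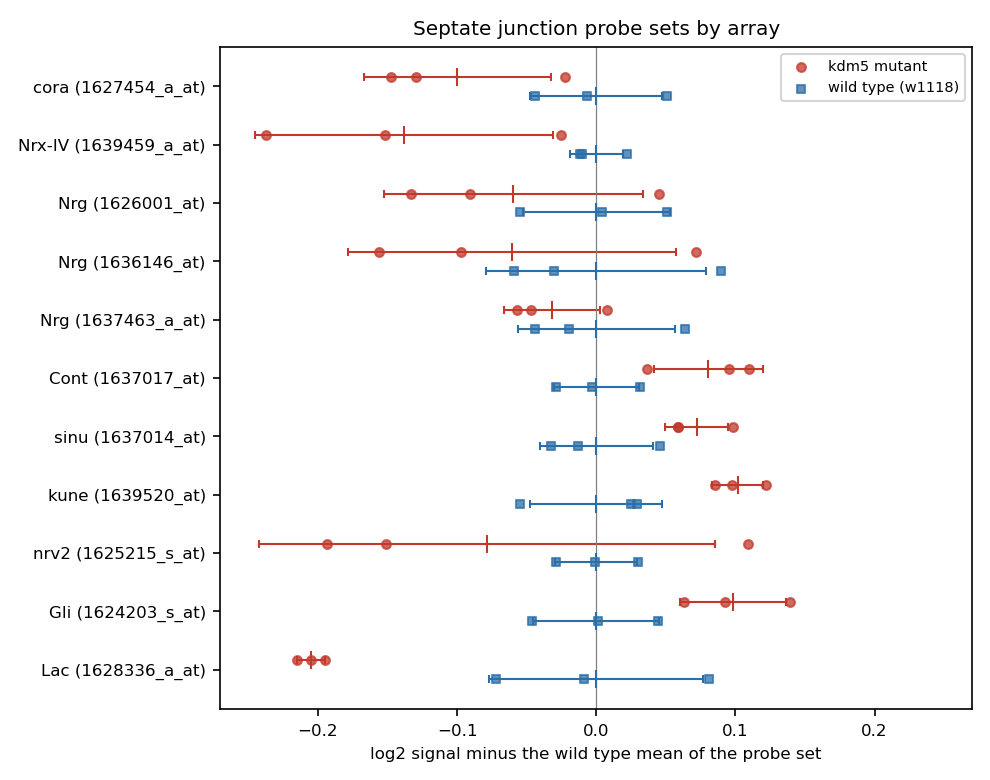
Log2 signal of each member probe set on each array, less the wild type mean of that probe set (horizontal axis), for 3 kdm5 mutant arrays (circles, upper line of each pair) and 3 wild type arrays (squares); vertical ticks are means and bars are SDs. The 3 Lac values of the mutant lie together below every wild type array, while the Nrg, cora and nrv2 values of the genotypes overlap.

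Lac encodes Lachesin, a membrane-anchored immunoglobulin-domain adhesion protein of the junction, which also bears on the size of tracheal cells and tubes. Its log2 level was 12.28, 12.29 and 12.27 in kdm5 mutant discs, against 12.41, 12.47 and 12.56 in wild type discs. The groups did not overlap, and the mutant arrays were nearly identical (SD 0.01, n = 3) while the wild type arrays spread more (SD 0.08, n = 3). The signal fell by 13.2%, a log2 change of -0.20 ± 0.06 (SE) with a 95% interval from -0.33 to -0.07 (limma adjusted p = 0.0421), and 22.8% of all probe sets changed more. The call is close to its threshold. It was lost without mutant replicate 1, 2 or 3 or wild type replicate 2 or 3 (limma adjusted p = 0.0891 to 0.114), where the change ran from -0.16 to -0.21, and was kept without wild type replicate 1 (limma adjusted p = 0.0451). It was also lost with quantile normalization (limma adjusted p = 0.0584) and with arrays centred on their medians (0.0582), at changes of -0.19 with either. Over 16 alternatives 6 kept the call (limma adjusted p = 0.000423 to 0.784).

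The neurexin, contactin and neuroglian trio, which form a complex at the junction, gave no call. Nrx-IV, the neurexin family protein that anchors the complex, read 11.63, 11.54 and 11.76 in the mutant, against 11.80, 11.77 and 11.77 in wild type. All mutant arrays lay below all wild type arrays, with mutant replicate 3 just below them. Its log2 change was -0.14 ± 0.06 (SE, limma adjusted p = 0.204), with an interval from -0.29 to 0.01. Cont, the glycolipid-anchored contactin, read 11.94, 12.00 and 12.01 in the mutant, against 11.87, 11.93 and 11.90 in wild type. Here the mutant arrays all lay higher, with mutant replicate 1 just above the highest wild type array, and the change was 0.08 ± 0.05 (SE, limma adjusted p = 0.333).

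Nrg encodes Neuroglian, the fly member of the L1 family of cell adhesion molecules, and makes an epithelial and a neuronal form by splicing. Its brightest probe set read 11.41, 11.47 and 11.64 in the mutant and 11.54, 11.66 and 11.51 in wild type. The next brightest read 10.74, 10.75 and 10.80 in the mutant and 10.75, 10.86 and 10.78 in wild type, and the dimmest read 7.37, 7.33 and 7.51 in the mutant and 7.51, 7.41 and 7.47 in wild type. The genotypes overlapped on all 3 probe sets. Their log2 changes were -0.06 ± 0.08, -0.03 ± 0.05 and -0.06 ± 0.06 (SE, limma adjusted p = 0.666, 0.755 and 0.61). Differences between the 3 probe sets within an array shifted between genotypes by 0.03 or less in size on the log2 scale, and exact two-sided permutation tests of these 3 shifts gave p from 0.6 to 0.9. The smallest value such a test allows here is 0.1, so it could not have passed 0.05 for any shift. The 3 differences share probe sets and are not independent. The sources used here do not say which splice form each probe set reads.

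Inside the membrane, cora encodes Coracle, a FERM-domain protein of the band 4.1 family that binds the tail of Nrx-IV. It read 10.43, 10.41 and 10.54 in the mutant, against 10.52, 10.61 and 10.55 in wild type. Mutant replicate 3 lay within the wild type range and the other 2 mutant arrays below it. The change was -0.10 ± 0.06 (SE, limma adjusted p = 0.298), with an interval from -0.23 to 0.03.

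The claudins, small membrane proteins that shape the barrier, both read slightly higher in the mutant without a call. sinu, which encodes Sinuous, read 11.70, 11.74 and 11.70 in the mutant, against 11.63, 11.61 and 11.69 in wild type. The lowest mutant values lay just above wild type replicate 3, and the change was 0.07 ± 0.05 (SE, limma adjusted p = 0.385). kune, which encodes Kune-kune, read 11.55, 11.52 and 11.51 in the mutant, against 11.46, 11.45 and 11.37 in wild type. All mutant arrays lay above all wild type arrays, and the change was 0.10 ± 0.05 (SE, limma adjusted p = 0.221), with an interval from -0.01 to 0.22.

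The sodium pump is part of the complex apart from its ion transport, and nrv2 encodes the beta subunit that the junction needs. nrv2 read 10.18, 10.23 and 10.49 in the mutant, against 10.38, 10.35 and 10.41 in wild type. The mutant arrays lay on either side of the wild type arrays, with replicate 3 above all of them and replicates 1 and 2 below, and the mutant SD of 0.16 was the highest of any member. The change was -0.08 ± 0.08 (SE, limma adjusted p = 0.611), and -0.17 without mutant replicate 3 (limma adjusted p = 0.0912, the lowest of 16 alternatives, which ran up to 0.976). nrv2 and Kdm5 lie on the same arm, 2L, with 107 measured genes between them in the order of the RefSeq gene table. Among the 100 measured genes on each side of Kdm5 32 of 200 were called, against 20.8% on the whole arm.

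Gli encodes Gliotactin, a neuroligin-like protein of the tricellular corner, where 3 cells meet and the septa end. It read 12.00, 11.92 and 11.95 in the mutant, against 11.86, 11.90 and 11.81 in wild type. Mutant replicate 2 lay just above wild type replicate 2 and the groups did not overlap. The change was 0.10 ± 0.05 (SE, limma adjusted p = 0.254). The probe sets of Gli and nrv2 carry the suffix _s_at, which the manufacturer gives to probes that can match transcripts of more than 1 gene, so their signal may not be theirs alone. The same suffix stands on the Kdm5 probe set. Below it stands on others, among them those of vari, pck, pasi2, M6, nrv3 and Vps35 and the called vg probe set.

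**Figure D2:**
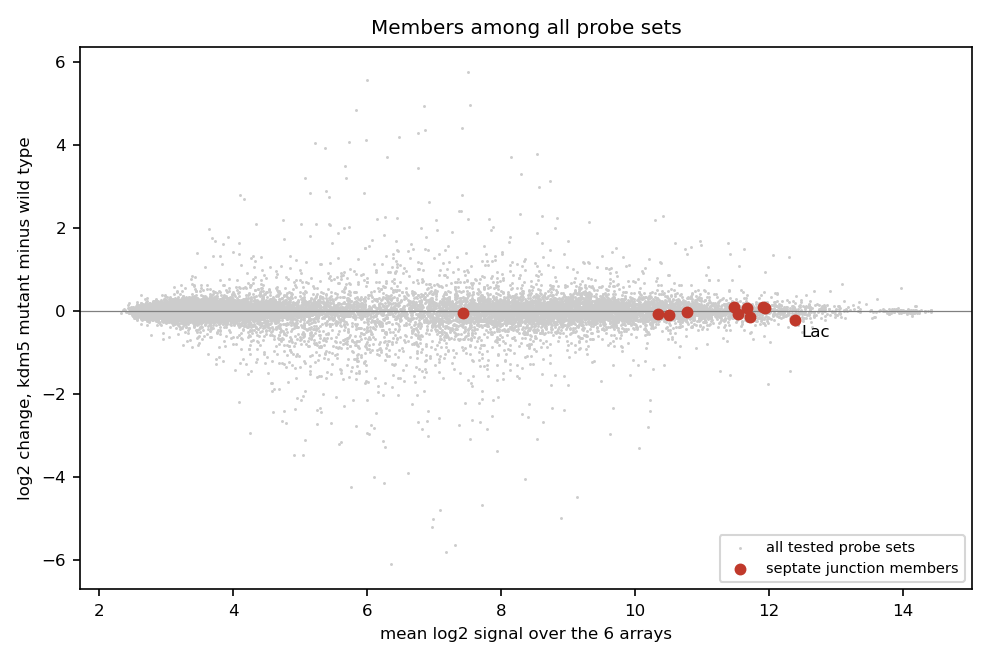
Log2 change, kdm5 mutant minus wild type (vertical axis), against the mean log2 signal over the 6 arrays (horizontal axis) for all 18769 tested probe sets (grey) and the 11 member probe sets (red). The members lie along 0 at high signal, with Lac lowest at a change of -0.20.

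In 6 of the 11 probe sets the mutant and wild type arrays did not overlap, beside 36.1% of all probe sets and 56.3% of the 9384 brighter ones. The probe sets of Nrx-IV and Lac were lower and those of Cont, sinu, kune and Gli higher in the mutant. Among the mutant arrays replicate 3 gave the highest value in 7 of the 11 probe sets, those of cora, Nrx-IV, Cont and nrv2 and all 3 of Nrg, while it did so in 30.7% of those 9384. Without that array the changes of Nrx-IV, cora and the brightest Nrg probe set read -0.19, -0.14 and -0.13, and none of them was called (limma adjusted p = 0.0741, 0.175 and 0.291).

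Other genes of the pleated septate junction were read from 12 of 14 listed genes, 1 probe set per gene. Of these 3 rose, none fell and 9 did not pass, and the median log2 change was 0.03. Over all 11981 genes, taken the same way, 9.77% were called higher and 11.9% lower, 21.7% in all, and the share was 32.3% among the 7273 genes above the median level. vari encodes Varicose, a PDZ scaffold of the MAGUK family that binds Nrx-IV from the inside. It read 10.50, 10.50 and 10.41 in the mutant, against 10.08, 10.04 and 9.94 in wild type, a wide gap, and rose 1.37-fold on its _s_at probe set (log2 change 0.45 ± 0.06, SE, limma adjusted p = 0.00169). wun encodes Wunen, a lipid phosphate phosphatase known from germ cell migration and needed for the tracheal barrier. It read 8.78, 8.80 and 8.66 in the mutant, against 8.25, 8.17 and 7.99 in wild type, and rose 1.53-fold (0.61 ± 0.08, SE, limma adjusted p = 0.00172). vari and wun were called under all 16 alternatives each.

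The related gene wun2 rose by 0.33 ± 0.09 (SE, limma adjusted p = 0.0413), but lost its call without mutant replicate 1 or 2 or wild type replicate 1, 2 or 3 (limma adjusted p = 0.0859 to 0.131). The 9 that did not pass were pck, a claudin also called megatrachea, the Ly6 family genes crok, crim, bou and cold, pasi1, pasi2, Tsf2, which encodes melanotransferrin, and the pump beta subunit nrv1. Their changes ran from -0.10 for pasi2 to 0.13 for Tsf2 (limma adjusted p = 0.207 and 0.124). nrv1, beside nrv2 in the order of measured genes, changed by 0.04 ± 0.06 (SE, limma adjusted p = 0.728). Whether vari or wun changed more than a member was not tested.

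At the tricellular corner bark, which encodes Anakonda, rose by 0.18 ± 0.05 (SE, limma adjusted p = 0.0472), and M6, a proteolipid protein, changed by 0.17 ± 0.05 without a call (limma adjusted p = 0.06). bark lost its call whichever array was left out (limma adjusted p = 0.0739 to 0.159). Of the 4 genes of the Scribble module and Yurt, the basolateral polarity proteins, scrib rose by 0.27 ± 0.06 (SE, limma adjusted p = 0.0256), and l(2)gl, yrt and dlg1 did not pass. dlg1, whose product lies in the junction, changed by -0.21 ± 0.06 on its brightest probe set (limma adjusted p = 0.059). Its other probe sets read -0.07, 0.02 and -0.08, none called. The scrib call was lost without mutant replicate 2 or 3 or wild type replicate 1 or 3 (limma adjusted p = 0.0716 to 0.0753) and with its 5 probe sets averaged, where the change was 0.07. The probe sets of scrib disagree. A dimmer probe set also rose, by 0.37 ± 0.08 (SE, limma adjusted p = 0.0189), and the others read -0.15, 0.04 and -0.20 without a call.

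**Figure D3:**
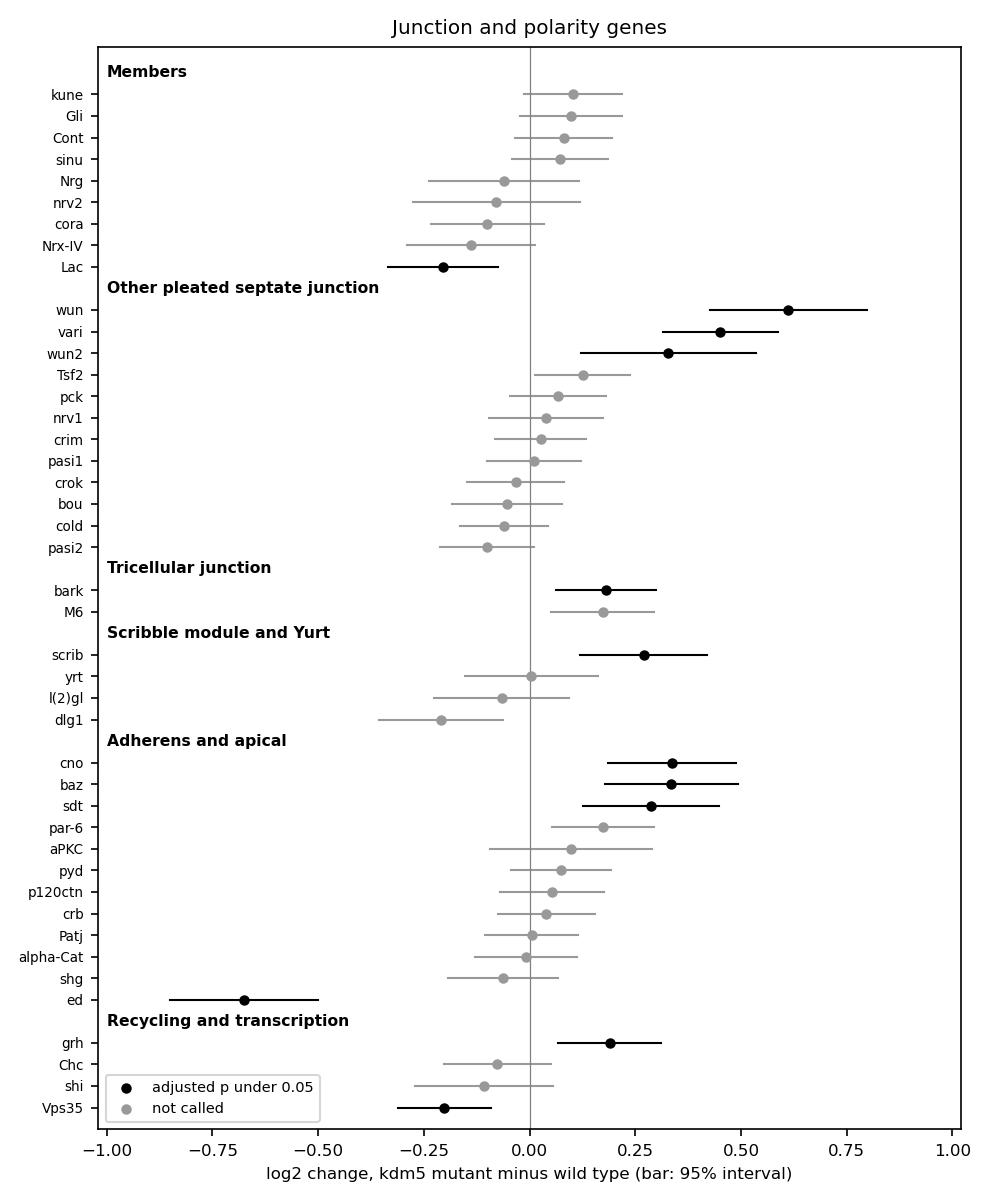
Log2 change, kdm5 mutant minus wild type (horizontal axis), with the 95% interval, for 1 probe set per gene of the members and of other pleated, tricellular, Scribble module, adherens and recycling lists; black points were called and grey points were not. Among the members Lac is the one black point, and vari, wun and ed lie farthest from 0 among the other junction genes.

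Genes of the smooth septate junction, the type built in the midgut and Malpighian tubules, were dim. Of mesh, Ssk, Tsp2A and hoka 3 lay below the median level in the mean, and Tsp2A, a tetraspanin at 4.63 ± 0.14 in the mutant and 4.27 ± 0.14 in wild type (SD, n = 3 each), rose by 0.36 ± 0.10 (SE, limma adjusted p = 0.0395). That call was lost without mutant replicate 1 or 2 or wild type replicate 1 or 3 (limma adjusted p = 0.0862 to 0.12). Of 5 other sodium pump subunit genes, nrv1 among them, 2 fell, nrv3, the beta subunit of neurons, by 0.53 ± 0.10 (SE, limma adjusted p = 0.0124), and CG3701 by 0.23 ± 0.06 (0.0339). Both lay below the median level in both genotypes, and the CG3701 call was lost without mutant replicate 2 or 3 or wild type replicate 1 or 3 (limma adjusted p = 0.0904 to 0.105).

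Of 12 adherens junction and apical polarity genes 3 rose, 1 fell and 8 did not pass, with a median log2 change of 0.06. All 12 lie above the median level, where 32.3% of 7273 genes were called, so the count is near the share over such genes. ed encodes Echinoid, an immunoglobulin-domain adhesion protein of the adherens junction. It read 10.13, 10.03 and 10.31 in the mutant, against 10.84, 10.82 and 10.84 in wild type, and fell by 0.67 ± 0.07 (SE, limma adjusted p = 0.000842), a call held under all 16 alternatives. The rises were those of the Par complex scaffold baz at 0.34 ± 0.07, the afadin cno at 0.34 ± 0.06 and the Crumbs partner sdt at 0.29 ± 0.07 (SE, limma adjusted p = 0.013, 0.0107 and 0.0266). With probe sets averaged cno and sdt read 0.14 and 0.12 and were not called. sdt also lost its call without mutant replicate 2 or 3 or wild type replicate 1 or 3 (limma adjusted p = 0.0653 to 0.0913). For pyd, a scaffold of the ZO-1 family, the brightest of 6 probe sets changed by 0.07 without a call, while a dimmer one fell by 0.74 ± 0.08 (SE, limma adjusted p = 0.000852), at 4.62, 4.47 and 4.43 in the mutant against 5.11, 5.26 and 5.36 in wild type. The other 4 pyd probe sets did not pass, so the probe sets of this gene disagree. The E-cadherin gene shg changed by -0.06 and crb by 0.04, neither called.

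Of 7 neurexin, neuroligin and ankyrin genes 4 lay below the median level. Nlg1, a neuroligin, was among them at 4.17 ± 0.05 in the mutant and 3.78 ± 0.03 in wild type (SD, n = 3 each) and rose by 0.39 ± 0.05 (SE, limma adjusted p = 0.0019), and the other 6 did not pass. Of 4 measured genes of junction recycling and transcription, grh, which encodes the epithelial transcription factor Grainyhead, rose by 0.19 ± 0.05 and the retromer gene Vps35 fell by 0.20 ± 0.05 (SE, limma adjusted p = 0.0442 and 0.0236). Both lost their calls whichever array was left out (limma adjusted p = 0.0719 to 0.131 for grh and 0.0508 to 0.0868 for Vps35). A dimmer grh probe set also rose, by 0.38 ± 0.11 (SE, limma adjusted p = 0.0487). The clathrin and dynamin genes Chc and shi did not pass.

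Marker lists were read for the disc itself and for other tissues, of which only some build septate junctions. For reading the counts below, 21.7% of all 11981 genes were called, and 32.3% of the 7273 above the median level. Of the 9 wing disc epithelium markers 4 fell and none rose: ptc, the Hedgehog receptor gene, at -0.65 ± 0.06, the transcription factor genes rn and Dll at -0.35 ± 0.10 and -0.31 ± 0.06, and the wing selector gene vg at -0.18 ± 0.05 (SE, limma adjusted p = 0.000362, 0.046, 0.0147 and 0.0347). ptc kept its call whichever array was left out, vg lost it whichever was (limma adjusted p = 0.0636 to 0.117), rn lost it on leaving out any array other than wild type replicate 1 (0.0657 to 0.134), and Dll lost it without mutant replicate 2 or wild type replicate 1 (0.0609 and 0.0523). With either spike-in centring Dll, rn and vg were not called. These calls take the brightest probe set of a gene, and other probe sets differed. Dimmer probe sets of ap and nub rose by 0.58 ± 0.05 and 0.95 ± 0.11 (SE, limma adjusted p = 0.000403 and 0.00105). Others of nub and Dll were lower, at -0.59 ± 0.10 and -0.36 ± 0.09 (SE, limma adjusted p = 0.00634 and 0.0375). The dimmer probe sets of vg and rn changed by 0.04 and 0.10 without a call. The summed linear signal of all 9 markers, 1 probe set per gene, ran from 12397 to 13597 on the mutant arrays and from 13251 to 13424 on the wild type arrays. Of 10 salivary gland markers 6 fell and none rose, and their summed linear signal ran from 858 to 929 on the mutant arrays and from 4131 to 9213 on the wild type arrays. Of 7 tracheal markers 3 rose, 1 fell and 3 did not pass, with sums from 10627 to 10986 in the mutant and from 8164 to 9196 in wild type. The log2 changes were 1.48 for serp, 0.96 for verm and 0.31 for Osi7 (limma adjusted p = 1.19e-05, 2.95e-05 and 0.0147). Gasp, the brightest of them in wild type, changed by -0.25 (limma adjusted p = 0.0186), so the tracheal markers did not move together. Of 6 glial markers 1 rose and 5 did not pass, and their sums overlapped, from 989 to 1023 in the mutant and from 940 to 1028 in wild type. repo, the defining glial gene, read 2.74 ± 0.03 in the mutant and 2.82 ± 0.10 in wild type (SD, n = 3 each), below the median level and not called, while moody, a receptor of barrier glia that bears on their septate junctions, rose by 0.57 ± 0.06 (SE, limma adjusted p = 0.000484). Neuronal sums ran from 736 to 784 in the mutant and from 828 to 848 in wild type, with 3 of 7 genes lower. Of 7 fat body markers 6 fell, with sums from 1187 to 1293 in the mutant and from 3556 to 4718 in wild type, and haemocyte, gut and myoblast lists gave 1, 1 and 1 higher and 4, 1 and 0 lower calls of 10, 7 and 5 genes. The part of the disc epithelium or of these tissues in the level of Lac, vari, wun or any other junction gene was not tested. Fewer cells of a type and less RNA per cell cannot be told apart in whole discs. All samples were taken at 96 h AED, and whether the genotypes were then at the same developmental stage was not tested.

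The direction of some member changes depended on how the arrays were scaled. Spike-in transcripts added at hybridization read 10.58 to 10.63 in the mutant and 10.73 to 10.87 in wild type, and with each array centred on them the median probe set changed by 0.19 instead of 0.01. Centring on the polyadenylated spike-ins, at 7.05 to 7.17 in the mutant and 7.13 to 7.27 in wild type, put that median at 0.09. With the hybridization spike-ins Lac read -0.02 (limma adjusted p = 0.784), cora, Nrx-IV, nrv2 and the brightest Nrg probe set 0.081, 0.042, 0.10 and 0.12, none called, and Cont, sinu, kune and Gli rose by 0.26, 0.25, 0.28 and 0.28 (limma adjusted p = 0.0241, 0.0235, 0.0244 and 0.0242). Those values stand against a background median of 0.19, and 7225 probe sets were called in that setting. With the polyadenylated spike-ins Lac read -0.12 (limma adjusted p = 0.356) and no member was called. vari and wun were higher and ed lower under both, at 0.54 and 0.63 for vari, 0.70 and 0.79 for wun and -0.59 and -0.49 for ed with the polyadenylated and the hybridization spike-ins.

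**Figure D4:**
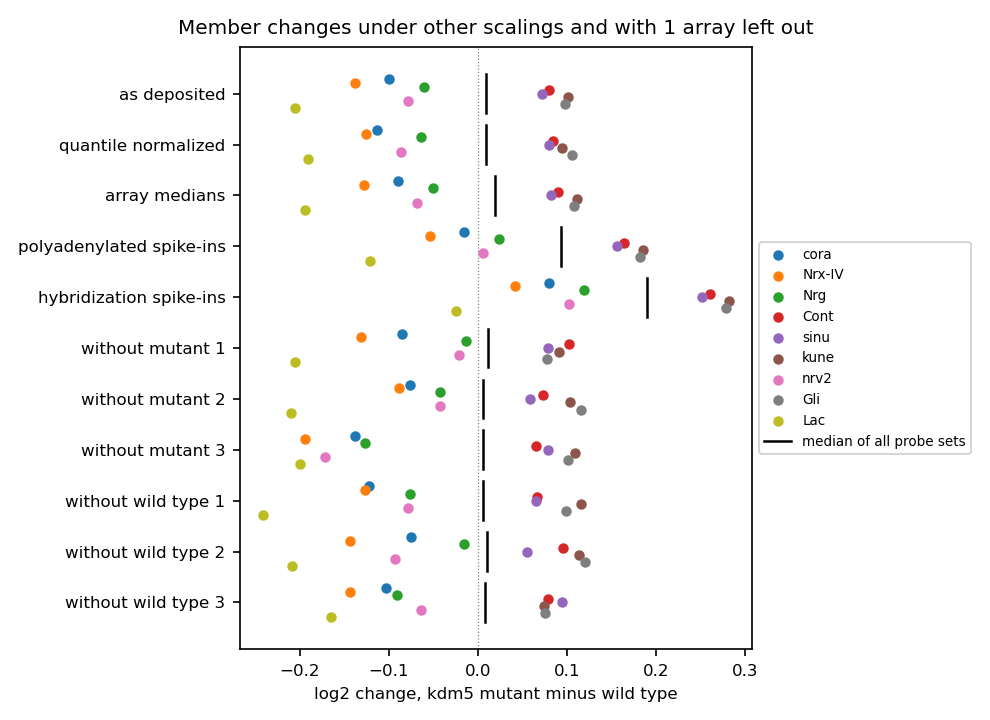
Log2 change, kdm5 mutant minus wild type (horizontal axis), of the 9 member genes (coloured points, brightest probe set) under 5 scalings of the arrays and with each array left out; black ticks mark the median over all probe sets. The points shift to the right with the spike-in scalings, along with the median of all probe sets at 0.09 and 0.19, and Lac is the lowest point in each of the settings drawn.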

How the data were processed

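The values the authors deposited are normalized signals on a log2 scale. GCOS, PLIER, GCRMA and Affymetrix Expression Console are named in the submitters' processing notes; which of them made the values, and the genome build, are not given in the sources used here. Scanner files were not used, so there are no detection calls. Of 18952 probe sets 183 controls were left out. The annotation gave 1 gene for 13646 probe sets, and symbols were updated by gene identifier from the RefSeq gene table (Release 6) for 13543. A gene is represented by its probe set of highest mean. Samples were grouped by title. All 18769 remaining probe sets entered 1 limma 3.58.1 model in R 4.3.3 (lmFit, eBayes, genotype as the only term, two-sided, 4 residual degrees of freedom), tested first on simulated data. Changes are mutant minus wild type with the moderated SE, and intervals are 95%. Members and lists were chosen with earlier results of these data known. All members and Kdm5 are named, of other junction lists every called gene (or, with none, the 2 brightest), and of marker lists at most 4 called genes; uncalled junction genes and repo were named after their values were seen. Alternatives were a replicate block, quantile normalization, 3 centrings, a filter on dim probe sets, another prior, array weights, 1 probe set or the mean per gene, and each array left out.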

Additional observations from a re-analysis of the deposited data

How the results depend on the processing

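With 1 array left out the calls ranged from 0 to 1 for member probe sets, tricellular, smooth and Scribble module genes, from 1 to 2 for pump subunits, from 2320 to 2796 for all probe sets, and were 0 for recycling and transcription genes. No label says why numbers are shared, and deviations of same-numbered arrays correlated at -0.07, -0.03 and -0.18, so the numbers were not taken as pairs; with the replicate block the calls were 0 for members, tricellular, Scribble module and recycling genes, 1 for pump subunits, 2 for other pleated genes, 3 for adherens and apical genes and 2497 for all probe sets, and the genes no longer called were Lac, wun2, CG3701, bark, scrib, sdt, Vps35 and grh (limma adjusted p = 0.0583 to 0.123). Member calls were 0 with quantile normalization, array medians or polyadenylated spike-ins, and 4 with hybridization spike-ins (Cont, sinu, kune, Gli) or the trended and robust prior (Lac and Nrx-IV lower, kune and Gli higher). With hybridization spike-ins the calls were 6 for other pleated genes, 2 for tricellular, 2 for smooth, 8 for adherens and apical, 4 for neurexin relatives, 1 for recycling and 7225 for all probe sets. With polyadenylated spike-ins they were 1 for pump subunits and 0 for recycling. With the trended and robust prior they were 5 for other pleated genes, 1 for pump subunits and 2 each for tricellular and Scribble module genes. Tricellular and Scribble module genes gave 2 calls each with the filter on dim probe sets, array weights or 1 probe set per gene, and 2 and 0 with probe sets averaged, and the filter left 0 pump subunit and 0 neurexin relative calls, most of these genes being below it. Signs turned for members that were not called: with hybridization spike-ins cora read 0.081, Nrx-IV 0.042, nrv2 0.10 and the Nrg probe sets 0.12, 0.12 and 0.15, and with polyadenylated spike-ins nrv2 read 0.0059 and the Nrg probe sets 0.025, 0.024 and 0.052; the centring moves all probe sets by its own construction. Causes of the other changes were not tested. Kdm5 stayed called in all 16 alternatives. Background correction could not be varied on normalized values, which limits what can be said of dim genes.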
